A study of Mus musculus with 2 samples.

Results

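Early proximal-type enterocytes are taken here as absorptive epithelial cells of the small intestine that carried a middle level of Fabp1, the liver-type fatty acid binding protein, and little of the genes that mark the ileum, goblet cells or dividing cells. They were picked by values: Fabp1 from 40 to below 100 CP10K (the deposited signal, in parts of a cell total of 10000), Fabp6 below 5, Afp below 10, no Mki67 or Top2a, and a sum below 10 over the goblet genes Muc2, Fcgbp, Spink4, Clca1 and Zg16. The rule kept 539 of 11053 cells, or 4.88% (exact Clopper-Pearson 95% interval 4.48 to 5.29). These genes chose the cells, so their levels are no finding.

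The data are 2 libraries of sorted small intestine epithelium from mice at E18.5, the end of gestation: Control and Tet3KO, both labelled as strain C57BL6/J and both pooled from 2 embryos. The knockout allele lacks exon 5 of Tet3, an enzyme that oxidises 5-methylcytosine; per the labels' protocols Cre removed the exon in embryonic stem cells from an F1 cross, (C57BL6/J x C3H/HeJ), and clones of these gave chimeras, and the line was then backcrossed; the deletion is thus not limited to the epithelium. The labels also call the Control sample wild-type. Cells of both libraries had been fixed in 90% methanol before droplet capture, which reads each transcript near its 3′ end with a unique molecular identifier (called a molecule here).

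Barcodes in the deposited table end in 1 of 2 suffixes, called set 0 and set 1. No label ties a suffix to a genotype, so Control was not compared with Tet3KO, and the table is 1 pooled sample without replicates. Cells of 1 sample are not replicates, so no p-value is given anywhere; values of both sets stand beside the pooled ones as a description. Of set 1, 818 cells whose barcode set 0 also carried were left out. Of the 539 members, 156 came from set 0 (2.63% of its 5933 cells, 2.24 to 3.07) and 383 from set 1 (7.48% of its 5120 cells, 6.77 to 8.24), so set 1 gave 71.1% of the members. Recovered depth ran from 6771 to 99155 molecules per member, with a median of 20530 (20519 in set 0 and 20530 in set 1) and 4293 genes in the median member. That median lies above the 10000 reads per cell which the labels state. All intervals here cover counting error only.

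Enterocytes arise from dividing cells at the base of the epithelium, leave the cell cycle, and then load fatty acid carriers, apolipoproteins and brush border enzymes as they mature. Along the length of the gut they also differ by region: proximal cells lean to lipid, retinol and iron uptake, while late fetal and newborn ileal cells bind bile acids through Fabp6 and digest protein in large lysosomes. The marker genes given for these cells are Krt19, a keratin of simple epithelia, Ctrb1, the precursor of the digestive protease chymotrypsin, Cym, the milk-clotting protease chymosin, and Reg1, a secreted lectin-like protein. Ctrb1 and Reg1 are best known from the exocrine pancreas and Cym from the stomach of newborn mammals. Reads of Reg1 may be shared with its close relative Reg2, and those of the Gstm genes with each other, which the counting was not checked for.

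In the GRCm38 annotation (GENCODE) Ctrb1 lies at chr8:111686519-111691010 (minus strand), Cym at chr3:107211293-107221732 (minus), Reg1 at chr6:78422711-78428667 (plus) and Krt19 at chr11:100140810-100148665 (minus), and each is protein-coding. Promoters for 3 of these 4 markers were in the RefSeq promoter table (GRCm38.p6). The 250 bases before the start site are shown for them, because these 3 genes share an uneven pattern from cell to cell, and for Fabp1, the gene that set the window. The intervals are chr8:111691011-111691260 (Ctrb1, minus strand), chr3:107221733-107221982 (Cym, minus), chr6:78425733-78425982 (Reg1, plus) and chr6:71199629-71199878 (Fabp1, plus). The start sites used are those of RefSeq. For Reg1 and Fabp1 they lie inside the GENCODE interval of the gene (chr6:71199827-71205023 for Fabp1). The Reg1 window thus lies within that gene's GENCODE interval, and the Fabp1 window ends inside its own. Capitals mark matches, on either strand, to a CDX core (TTTATNG) or a TATA box (TATAAA).
Ctrb1: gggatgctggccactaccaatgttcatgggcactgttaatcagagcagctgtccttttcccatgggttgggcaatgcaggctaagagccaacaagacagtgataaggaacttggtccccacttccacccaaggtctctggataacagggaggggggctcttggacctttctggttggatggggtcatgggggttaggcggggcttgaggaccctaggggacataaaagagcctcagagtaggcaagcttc
Cym: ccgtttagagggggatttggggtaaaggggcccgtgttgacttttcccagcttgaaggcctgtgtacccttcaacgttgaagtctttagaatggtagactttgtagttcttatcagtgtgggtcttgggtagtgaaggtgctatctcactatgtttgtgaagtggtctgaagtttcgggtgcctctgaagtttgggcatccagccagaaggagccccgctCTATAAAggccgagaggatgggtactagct
Reg1: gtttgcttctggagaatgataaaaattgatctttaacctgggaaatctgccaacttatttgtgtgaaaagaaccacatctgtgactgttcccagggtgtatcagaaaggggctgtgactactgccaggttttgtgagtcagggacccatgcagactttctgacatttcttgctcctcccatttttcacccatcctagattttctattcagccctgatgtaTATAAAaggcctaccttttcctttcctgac
Fabp1: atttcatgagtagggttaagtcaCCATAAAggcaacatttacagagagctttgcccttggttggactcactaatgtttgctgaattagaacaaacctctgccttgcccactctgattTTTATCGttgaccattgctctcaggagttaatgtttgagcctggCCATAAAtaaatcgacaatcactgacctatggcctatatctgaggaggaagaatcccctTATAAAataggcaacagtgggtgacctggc
Cym, Reg1 and Fabp1 each held TATAAA, from base 29, 30 and 30 before the start respectively, and 12.4% of 32851 promoter windows of that length held it on either strand. The CDX core matched 3 times in the Fabp1 window and once in that of Cym, there overlapping the TATA box; 9.81% of all windows held it. The Ctrb1 window held neither. The core of HNF4 (CAAAGTCCA, in 0.384% of windows) and that of HNF1 (in 0.0609%) matched in none of these 4 windows. AGATAA, a form of the core of the zinc finger factors Gata4 and Gata6 (in 9.99%), also matched in none. Other forms of that core were not searched. These are matches of letters only.

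Of the given markers, Krt19 was carried by nearly all members and the other markers by a minority. Krt19 averaged 10.9 CP10K, with a lowest cell at 0, a median of 10.3 and a highest of 39.4, and 94.1% of members had a transcript (90.3% after every cell was thinned to 8000 molecules, which left out 2 shallower members). Ctrb1 was found in 21.7% of members (15.3% thinned, 12.3 to 18.6), Reg1 in 25.05% (18.4%, 15.2 to 22.0) and Cym in 37.7% (24.6%, 21.0 to 28.4). Taken gene by gene, Ctrb1, Reg1 and Cym each had a median of 0 over the members, which does not mean that a typical member lacked all of them.

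Their means came from few cells. The highest 10 members held 61.3% of all Ctrb1 signal, with 1 cell at 189.6 CP10K, and the highest 10 held 52.0% of Reg1, with 1 cell at 141.3. For Cym the same share was 35.8% and for Krt19 it was 5.71%. In all, 372 of 539 members (69.0%) had fewer than 3 molecules of each of Ctrb1, Reg1 and Cym. The sets did not match in these means: Ctrb1 averaged 0.837 CP10K in set 0 and 2.83 in set 1, Reg1 4.89 and 1.51, Cym 1.03 and 0.873, and Krt19 13.4 and 9.96. So Ctrb1 stood higher in set 1 and Reg1 in set 0.

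**Figure D1:**
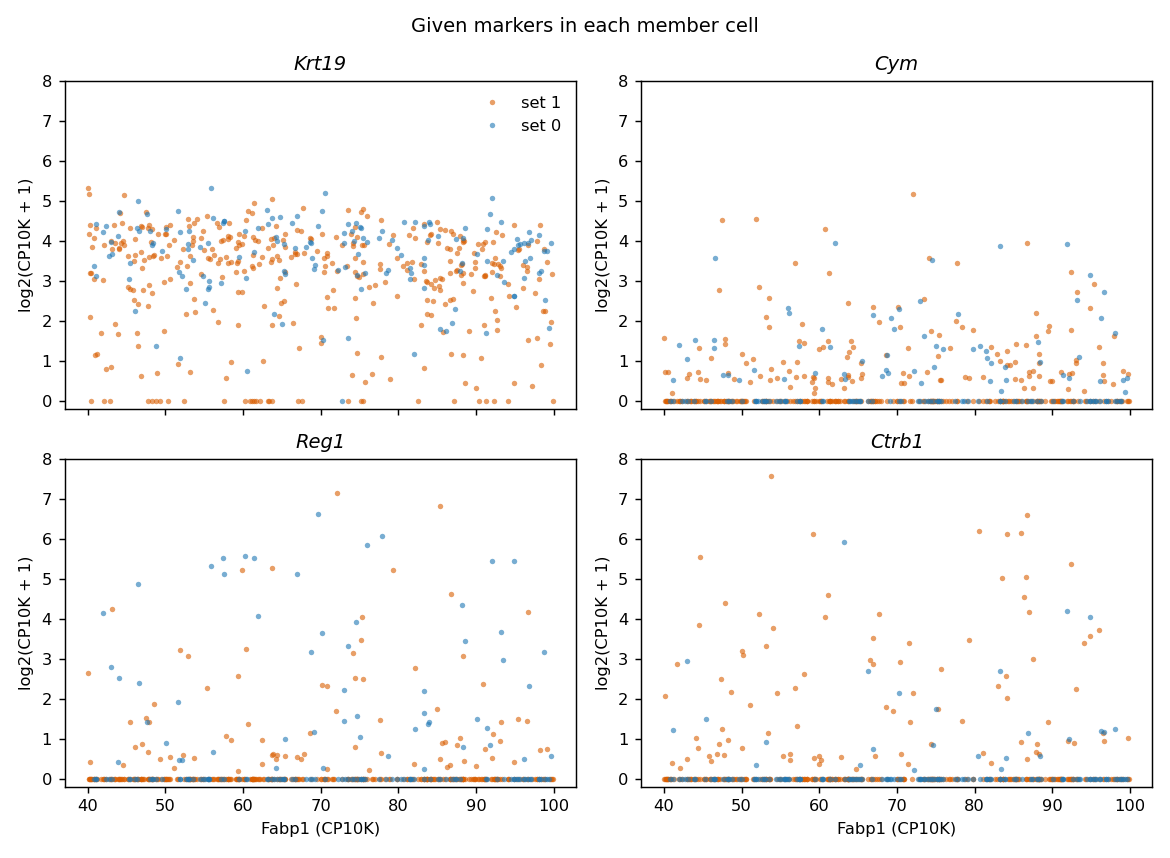
Level of each marker in every one of the 539 member cells, as log2(CP10K + 1), against the Fabp1 level of the cell (CP10K); colours give the barcode sets. Krt19 fills the panel, while Ctrb1, Reg1 and Cym sit at 0 in most cells and reach high levels in a few.

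Most members with Reg1 also had Cym, and fewer of those with Ctrb1 had Cym or Reg1. A gene is called here where its mean differed at least 2-fold in the pooled cells and in each set. Counting cells with 3 or more molecules, 46 of the 73 Reg1 members (63.0%) also had Cym, against 18.6% of all members, with 65.8% of the Reg1 members in set 0 and 60% in set 1. Ctrb1 was counted in 70 members, of which 28 (40.0%) had Cym and 12 (17.1%) had Reg1, against 13.5% of all members with Reg1. By set, Reg1 was in 41.7% of the Ctrb1 members of set 0 (24.4% of all its members) and in 12.1% of those of set 1 (9.14%), with 12 and 58 Ctrb1 members. Members with Cym carried more Reg1 (10.7 CP10K against 0.369), Dmbt1 (5.50 against 1.53) and Onecut2 (1.68 against 0.790) than the 336 members without Cym; 19 of 5220 measured genes were called higher there (0.364%) and 79 lower (1.51%). Members with Ctrb1 differed less in number of genes from the 422 without it, with 3 of 5200 called higher (0.0577%) and 27 lower (0.519%). These shares and counts were not tested, and depth moved with 2 of the splits: the median was 22740.5 molecules in members with Ctrb1 and 20083 in those without it, 21871 and 19710.5 for Cym, and 20300 and 20412 for Reg1. Its part in these counts was not tested.

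Members with 3 or more molecules of Reg1 carried a second group of genes. Set beside the 404 members without Reg1, 18 of 5221 measured genes were called higher (0.345%) and 112 lower (2.15%). Dmbt1, a mucosal scavenger protein, averaged 6.17 against 1.68 CP10K, and S100g, the calcium carrier calbindin-D9k, 12.8 against 4.61. Cym averaged 3.79 against 0.367. All 14 measured genes of a list of distal (ileal) genes lay lower, 5 of them past the fold, and 18 of 18 genes of endocytosis and lysosome lay lower, 5 past the fold. Genes named in these splits were chosen after their values were seen.

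The lineage of the members was checked on lists of marker genes. After thinning, every member carried Epcam, a surface protein of epithelia, at a mean of 13.2 CP10K. Of 15 enterocyte markers 14 reached 0.2 CP10K, led by Apoa1, the apolipoprotein of high-density particles, at 97.0. Fabp1 is among these markers, and the rule held it above that level in every member, so its entry could not fail. The stem cell list of 11 genes summed to 0.240 CP10K (1.09 in cells with less Fabp1), the tuft list to 0.000251, and all 5 endothelial genes were at 0. Of 9 mesenchymal genes 4 were at 0 and their sum was 0.0440. Of the immune list, Csf1r gave 0.363 of 0.375 CP10K, while Cd74, Cd79a, Tyrobp and C1qa were at 0. The acinar pancreas list has 18 genes, of which 6 were in the table; its highest was Cela1, an elastase, at 0.125 CP10K, and Cpa1, a pancreatic carboxypeptidase, was at 0: 0 of 537 thinned members had a molecule, and 3 counts, the limit set here for a count of 0, would be 0.559% of them (the exact 95% interval reaches 0.685%). Transcripts of Tet3 averaged 0.274 CP10K in members, 0.398 in set 0 and 0.224 in set 1; tags near the 3′ end lie outside the deleted exon and check nothing about genotype.

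The hormone genes of the members came from 3 cells. Summed over 12 enteroendocrine genes, 1 member of set 0 and 2 of set 1 reached 721, 586 and 93.8 CP10K, and the next member stood at 2.63. Sct, the hormone secretin, averaged 3.17 CP10K in all members and 0.115 without these 3 cells. Pyy, peptide YY, averaged 1.02 and 0.00229. Because both genes are lower than in cells with more Fabp1 once the 3 cells are left out, they are not counted among the genes described from here on, although they are in the counts of called genes.

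Krt19 split the members along a second axis that the gates on Fabp6 and Afp had not removed. Members with Krt19 of 8 CP10K or more numbered 345 (119 in set 0 and 226 in set 1), those from 3 to below 8 numbered 102, and those below 3 numbered 92 (13 in set 0 and 79 in set 1). The share below 3 was 8.33% of set 0 members and 20.6% of set 1 members. Both bounds were chosen after the values were seen. Rbp2, the cellular carrier of retinol, averaged 85.1, 76.7 and 78.9 CP10K in the high, middle and low class. Fabp1, held within the window by the rule, had medians of 66.9, 75.1 and 67.4. Median depth was 19672, 22548 and 22808.5 molecules.

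Members low in Krt19 held more of several genes of Fabp6-high cells than other members did, some of them well below the level of those cells. Meltf, melanotransferrin, averaged 0.381 CP10K in members high in Krt19, 2.72 in the middle class and 8.22 in the low class. Beside these, it averaged 14.6 in the 241 cells of the same Fabp1 range with Fabp6 of 5 or more. Those cells met the goblet and cycling gates at any level of Afp, and 107 of them had Afp below 10. Bex4 averaged 1.44, 4.49 and 9.44 beside 10.1, and Clca4b 0.426, 1.16 and 5.06 beside 7.21. In set 0 the low class had 1.81 of Clca4b beside 7.21. The lysosomal protease gene Lgmn averaged 0.116, 0.264 and 1.55 beside 6.99. Gpx3, the secreted glutathione peroxidase, followed the same order at 0.334, 1.41 and 5.58 beside 27.1; in set 1 the low class and the Fabp6-high cells stood at 5.15 and 5.3. Reg1, Cym and Ctrb1 ran the other way: Reg1 averaged 3.86, 0.0715 and 0.0198 CP10K, Cym 1.37, 0.207 and 0.0199, and Ctrb1 2.67, 2.604 and 0.29. In the middle class of set 0, Ctrb1 averaged 0.0327. Of members high in Krt19, 42.6% had 3 or more molecules of Reg1, Cym or Ctrb1, and of members low in Krt19, 6.52%.

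Over all 5566 measured genes, 299 were at least 2-fold higher in low than in high Krt19 members in the pooled cells and in each set (5.37%) and 102 lower (1.83%), with 13 low cells in set 0. Of the endocytosis and lysosome list, 18 of 18 genes lay higher and 10 passed the fold (median log2 ratio 1.39, against 0.11 over all measured genes); among them were Lgmn, a lysosomal protease, at 1.55 against 0.116 CP10K, Ctsl, cathepsin L, at 5.94 against 0.727, and Dab2, an adaptor of endocytosis, at 2.40 against 0.187. Of the distal list 15 of 15 lay higher and 8 passed the fold (median 1.47); the list holds the gate genes Fabp6 and Afp and shares Lgmn, Ctsl, Cubn and Dab2 with the lysosome list. Brush border hydrolases lay higher in 14 of 15, with 7 past the fold (median 1.13). The proximal list lay on both sides, with 4 of 14 past the fold on the lower side: Onecut2, a transcription factor of the proximal gut, Ckb, a creatine kinase, Dmbt1 and Gstm3. Gata4, a transcription factor of the jejunum, averaged 0.289 and 0.266. General enterocyte genes also differed: 13 of 15 lay higher in the low class, 3 past the fold (median 1.05). Fabp2 averaged 149.7 against 69.7 CP10K and Apoa4 94.8 against 28.5. Whether the split follows region or maturity was not tested. All 12 measured genes of ribosome biogenesis lay lower in the low class (median -0.75), and all 9 of nucleotide synthesis (median -0.76), none past the fold. By the distal and lysosomal genes the 92 members, as a class, go against a proximal label. By the enterocyte and brush border genes they also go against an early one. Some counts and named ratios that move by over 1.5-fold without the 92 members are given again below, but not all. The 3 members high in hormone genes are all in the low class, and with them 7 of 7 measured enteroendocrine genes lay higher there, 4 past the fold (Chgb, Cck, Sct and Pyy).

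**Figure D2:**
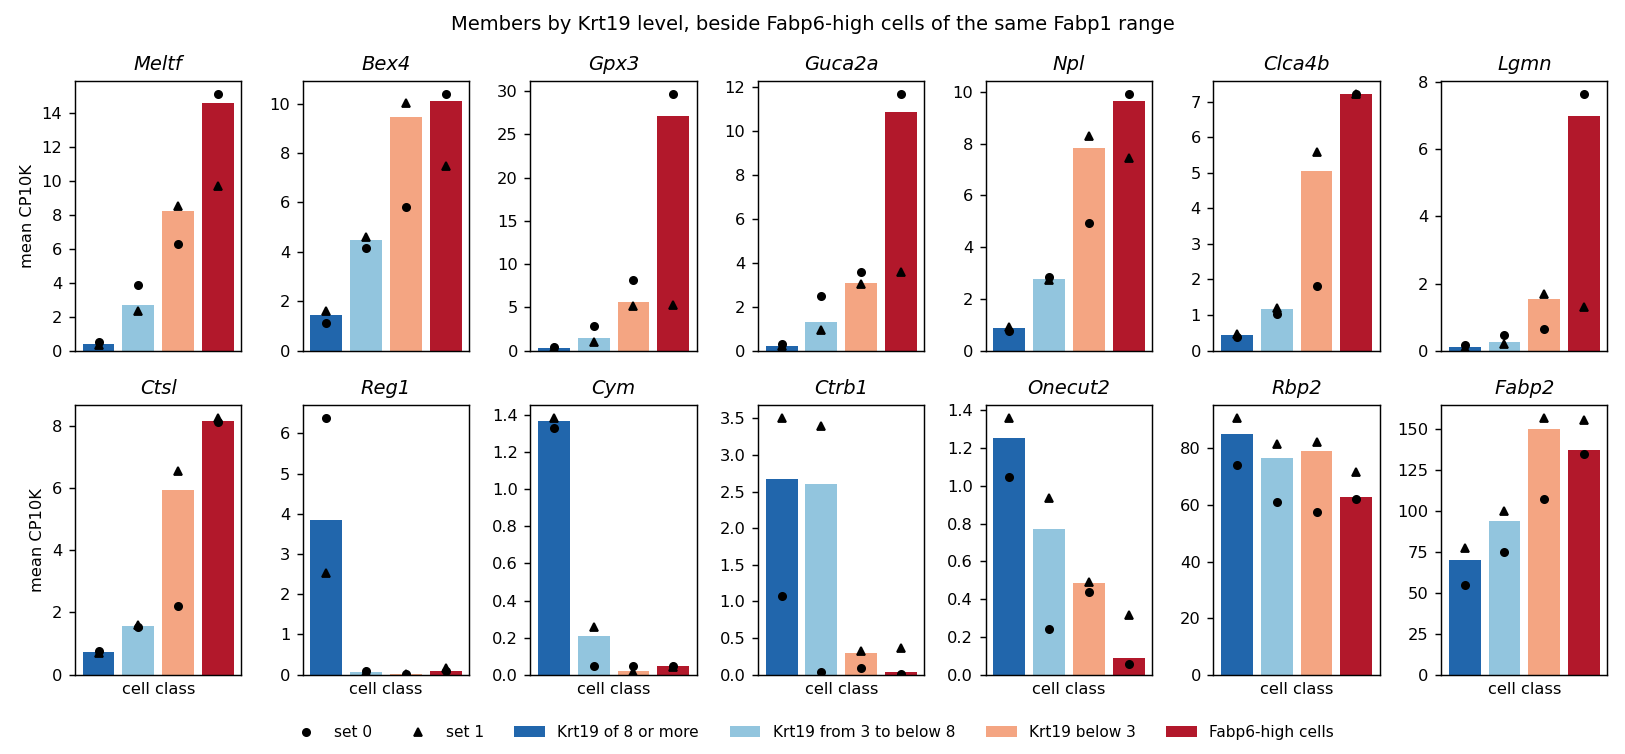
Mean CP10K of 14 genes in members of high, middle and low Krt19 and in Fabp6-high cells of the same Fabp1 range; bars are pooled cells, circles set 0 and triangles set 1. From Meltf to Ctsl the bars are higher as Krt19 is lower, Reg1 and Cym are near 0 in the low class, and Rbp2 is level across members.

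The next question was how members differ from cells with more Fabp1 under the same other gates, of which there were 4418 (2169 in set 0 and 2249 in set 1) with a median depth of 24179 molecules. The lowest members stood at 40.03 to 40.8 CP10K of Fabp1 and the 10 cells just below the window at 39.6 to 39.9; the highest 10 members stood at 98.9 to 99.9 and the 10 cells just above at 100.02 to 101.2. Since Fabp1 defined this contrast, the counts are a description. Of 5246 measured genes, 105 were higher in members by 2-fold in the pooled cells and in each set (2.0%) and 99 were lower (1.89%), with a median log2 ratio of 0.12 over all of them.

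Members carried less of the absorptive program than cells with more Fabp1. Of 21 measured genes of lipid absorption 20 were lower in members, 8 past the fold (median log2 ratio -0.77); Fabp1, which defined the contrast, is 1 of the 8. Apoc2, an apolipoprotein that activates lipoprotein lipase, averaged 7.62 CP10K in members and 30.2 in cells with more Fabp1 (6.76 against 37.0 in set 0, 7.97 against 23.8 in set 1). Fabp2, the intestinal fatty acid carrier, averaged 87.9 against 307, Cd36, a fatty acid translocase, 0.131 against 0.758, and Dgat2, which makes triglycerides, 3.5 against 9.36. Both sets gave each of these 4 genes the same direction, with larger ratios in set 0: the log2 ratio of Fabp2 was -2.42 in set 0 and -1.52 in set 1, and that of Cd36 -3.59 and -2.14.

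Among 15 brush border hydrolases 5 were called lower (median -0.71). Ace, angiotensin-converting enzyme, averaged 0.473 against 2.76 CP10K (log2 ratio -2.52), and Mme, neprilysin, 0.650 against 2.95 (-2.17). Lct, the lactase that splits milk sugar, averaged 1.62 against 4.22. Of 10 genes of gluconeogenesis and fructose use 3 were called lower, with Fbp1, fructose-bisphosphatase, at 0.276 against 1.90. Leap2, a secreted antagonist of the ghrelin receptor, was among the lowest of all, at 0.530 against 4.48 (-3.06), and Gatm, the first enzyme of creatine synthesis, at 0.0808 against 1.28 (-3.83). Slc2a2, a glucose and fructose transporter, averaged 0.236 against 1.12. Fcgrt, the neonatal Fc receptor that carries maternal antibody, averaged 7.66 against 25.3. By set, the log2 ratios in set 0 and set 1 were -3.35 and -2.05 for Ace, -3.00 and -1.89 for Mme, -3.18 and -1.74 for Fbp1, -3.22 and -1.88 for Slc2a2, and -2.34 and -1.32 for Fcgrt. Left without the 92 members low in Krt19, the lower calls numbered 196 in place of 99, Ace stood at -3.55 and Gatm at -4.99.

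Among the 105 genes called higher in members were Krt19, 4 claudins and 5 genes of ribosome biogenesis. Krt19 averaged 10.9 against 2.10 CP10K (log2 ratio 2.38), and 45.9% of thinned cells with more Fabp1 had it, against 90.3% of members. Of 6 measured claudins, the proteins of tight junctions, 4 were called higher (median 1.40), with Cldn3 at 2.49 against 0.546 and Cldn15, which forms sodium pores, at 1.45 against 0.460. All 11 measured genes of ribosome biogenesis were higher, 5 past the fold (median 1.25). Fbl, the nucleolar methylase fibrillarin, averaged 1.03 against 0.299, and Dkc1, the pseudouridine synthase dyskerin, 0.213 against 0.0584. All 9 measured genes of nucleotide synthesis were higher, 2 past the fold, Impdh2 at 0.383 against 0.0904 (log2 ratios of 2.59 in set 0 and 1.56 in set 1) and Dut at 0.291 against 0.0681. Csrp2, a LIM-domain protein, averaged 1.68 against 0.439, Pglyrp1, a peptidoglycan recognition protein, 1.81 against 0.519, and Phgr1 4.01 against 1.17. None of 17 measured transcription factors of enterocytes passed the fold in either direction (median 0.01); Gata4 averaged 0.281 against 0.279 and Onecut2 1.03 against 1.04.

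Compared with the 1191 cells of less Fabp1 under the same other gates (456 in set 0 and 735 in set 1, median depth 17970), 44 of 5333 measured genes were higher in members (0.825%) and 56 lower (1.05%). The median log2 ratio over all measured genes was -0.06. The lower side includes 3 enteroendocrine genes. Summed over the 12 hormone genes above, 19 of the 1191 cells (1.595%) and 3 members passed 20 CP10K; the wider enteroendocrine list of 15 genes summed to 16.6 CP10K in the cells of less Fabp1 and to 5.81 in members. Chgb, a granin of hormone granules, averaged 0.163 in members and 2.10 in cells of less Fabp1, and Gip, a hormone of the proximal gut, 0.577 and 4.32. Without members low in Krt19 the log2 ratio of Chgb moved from -3.61 to -7.56 and that of Guca2a from -1.83 to -2.77. By set, Gip stood at -7.73 in set 0 and -2.33 in set 1, and Chgb at -4.43 and -3.31.

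Fat and retinol handling was higher in members than in cells with less Fabp1. All 20 measured genes of lipid absorption were higher, 4 past the fold (median 0.63), and all 14 enterocyte markers, 5 past the fold (median 0.92); Fabp1 itself is on both lists and among the called genes of each. Of 9 measured genes of retinoid and xenobiotic metabolism 8 were higher and 5 passed the fold (median 1.21). Rbp2 averaged 82.4 CP10K against 19.4 (70.8 against 16.7 in set 0, 87.2 against 21.0 in set 1). Adh1, which oxidises retinol, averaged 1.27 against 0.432, Aldh1a1, which makes retinoic acid, 0.864 against 0.291, and Lrat, which esterifies retinol, 0.573 against 0.222. Both sets gave each of these the same direction. Lct averaged 1.62 against 0.545, Gda, guanine deaminase, 1.3 against 0.395, and Cda, cytidine deaminase, 2.77 against 0.999. All 17 genes of brush border structure were higher, but none passed the fold (median 0.28).

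Genes of growth were lower in members than in cells with less Fabp1. All 13 measured genes of ribosome biogenesis lay lower, with 2 past the fold (median -0.76), and all 12 of nucleotide synthesis, with 2 past the fold (median -0.65). Of 10 measured proliferation genes, after the gate had set Mki67 and Top2a to 0, 10 lay lower and 5 passed the fold: Tubb5 averaged 0.359 against 1.57 CP10K and Stmn1, which takes microtubules apart, 0.637 against 2.02. Olfm4, a stem cell gene, averaged 0.0205 against 0.279 (log2 ratios of -3.50 in set 0 and -2.51 in set 1), and Gpx2, a glutathione peroxidase of the crypt, 0.173 against 0.950. Krt19 did not pass the fold here, at 10.9 against 11.8 (log2 ratio -0.11), and Cym went opposite ways in the sets (1.03 against 0.516 in set 0, 0.873 against 1.80 in set 1).

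**Figure D3:**
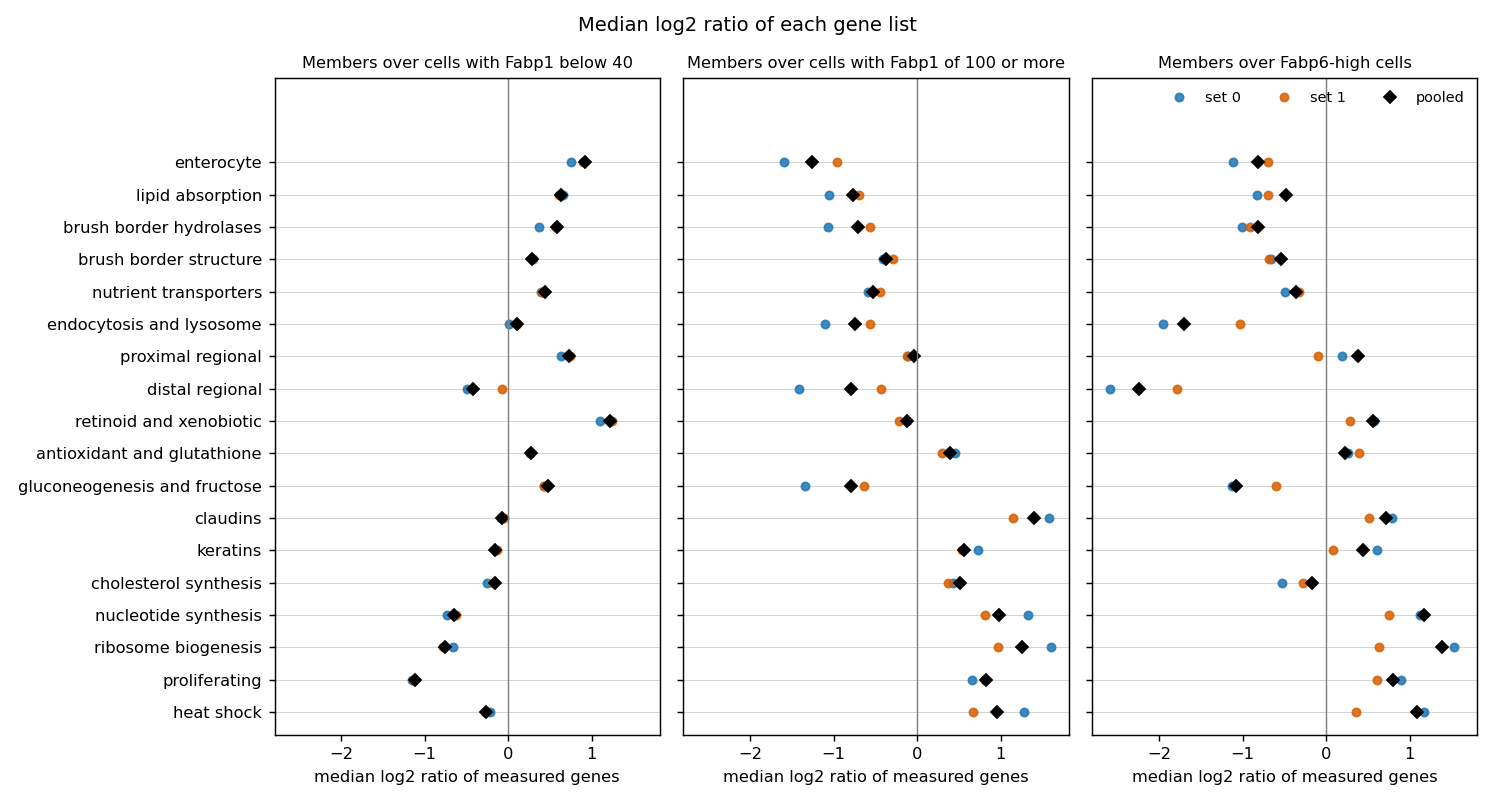
Median log2 ratio of the measured genes of 18 lists in members over cells with Fabp1 below 40, over cells with Fabp1 of 100 or more, and over Fabp6-high cells of the same Fabp1 range; diamonds are pooled cells and circles the sets. Lipid absorption lies at 0.63 in the left panel and -0.77 in the middle one, and ribosome biogenesis at -0.76 and 1.25.

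A few genes were higher in members than in both neighbours, the cells with less and with more Fabp1, each taken as a whole. Of 1682 genes with a mean of 1 CP10K or more in members or a neighbour, 4 stood at least 1.5-fold above both neighbours in the pooled cells and in each set (0.238%), and 0 stood 1.5-fold below both (0.00%). They were Ctrb1 (0.430 CP10K below the window, 2.25 in members and 0.512 above it), the glutathione transferases Gstm3 (1.40, 3.42 and 1.26) and Gstm1 (2.22, 3.98 and 1.54), and Nr2e3, a nuclear receptor, (1.08, 1.88 and 1.14). Unlike Ctrb1, Gstm1 was spread over the members, with a transcript in 94.4% of them and 7.90% of its signal in the highest 10 cells; Gstm3 had 89.4% and 7.03%. Gstm1 averaged 3.02 in set 0 members and 4.37 in set 1 members, and Gstm3 3.26 and 3.49.

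Finer bins of Fabp1 showed where each gene was highest. Krt19 averaged 10.8 CP10K in cells with Fabp1 below 10, was highest at 14.2 in the bin from 25 to below 40, stood between 11.8 and 9.26 in the 4 bins of the window, and was 0.815 at 300 or more. Gstm3 was highest at 3.85 from 55 to below 70 and Gstm1 at 4.35 from 70 to below 85, both inside the window, and Gstm1 was 0.764 at 300 or more. In set 1 Gstm1 stood at 4.66 already in the bin just below the window, against 4.72 at its highest. In the pooled cells Reg1 was highest above the window, at 4.44 from 100 to below 150, but in set 0 it was highest inside it, at 9.65 from 55 to below 70. Cym was highest below the window, at 2.80 from 25 to below 40. Ctrb1 in the pooled cells stood at 1.23 from 25 to below 40 and at 1.67 from 100 to below 150. Its bins of the window ran from 1.695 to 2.67. In set 0 Ctrb1 stood at 1.15 from 100 to below 150, above the 0.837 of all set 0 members. It was highest in that set inside the window, at 1.75 from 55 to below 70. So in set 0 Ctrb1 was not higher in members than in the bin just above them. Rbp2 and Fabp2 were higher in each next bin in the pooled cells: Rbp2 went from 61.5 in the first bin of the window to 101.99 in the last, and Fabp2 from 77.8 to 104.7. Fbl was lower in each next bin, from 1.22 to 0.864 within the window. Leap2 stood at 0.419 to 0.590 within the window and at 6.503 at 300 or more. Bins of the window held 122 to 140 cells each.

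**Figure D4:**
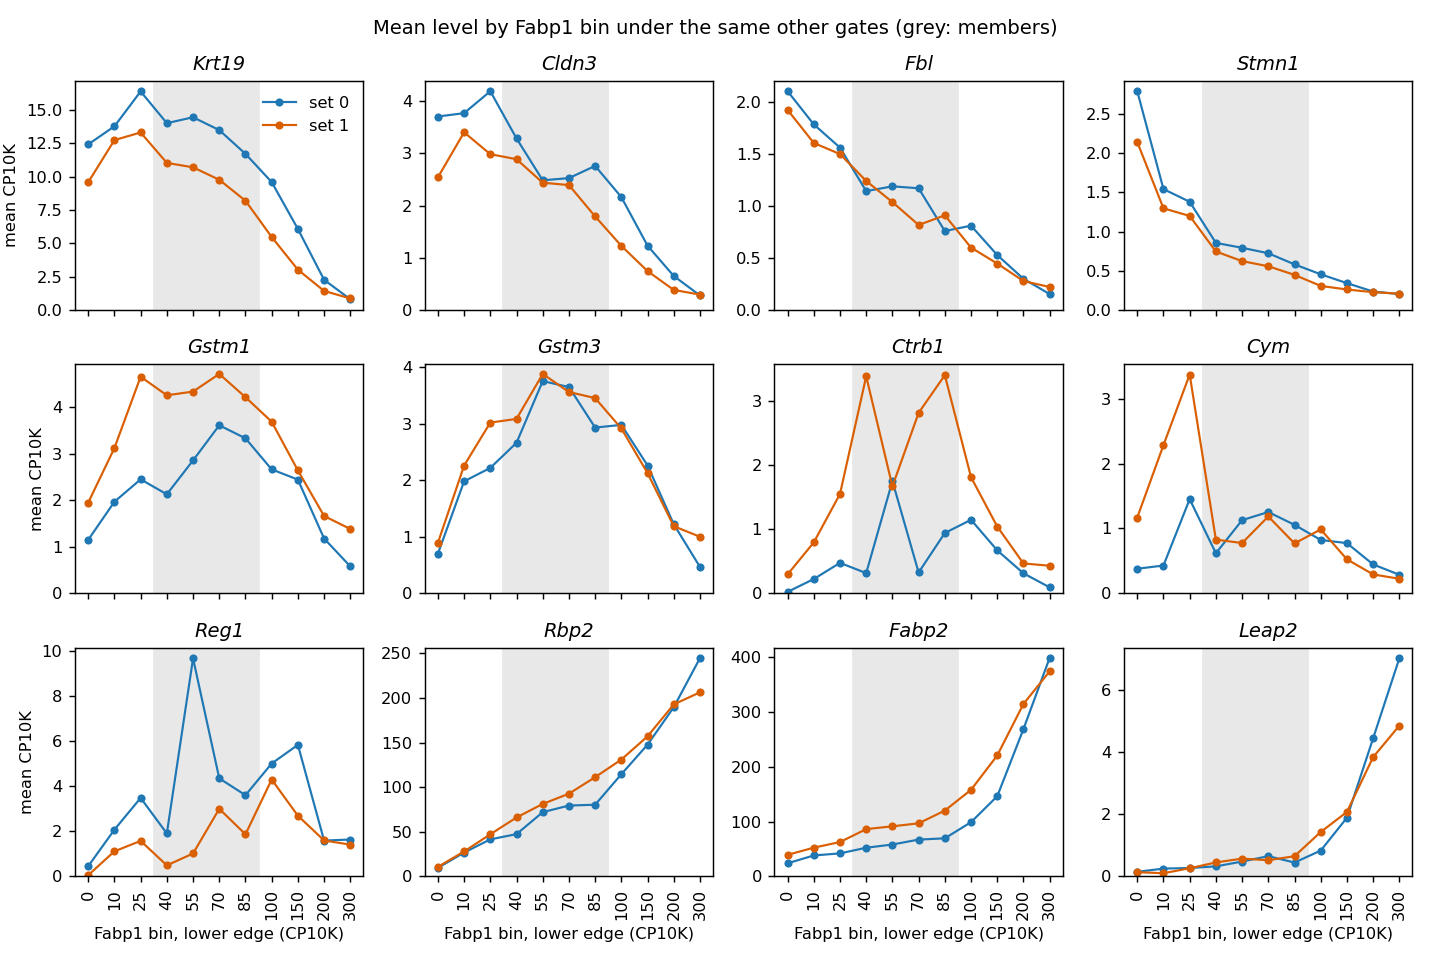
Mean CP10K of 12 genes in 11 bins of Fabp1, for cells under the same other gates, by set; the bins of members are shaded in grey and the ticks give each bin's lower edge. Gstm1 and Gstm3 are highest inside or at the edge of the shaded bins, Krt19 before them, and Rbp2, Fabp2 and Leap2 after them, while Ctrb1, Cym and Reg1 are uneven between neighbouring bins.

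The regional side of the label was examined against the 241 Fabp6-high cells, which share the Fabp1 range of members (median depth 22824). Of these, 216 came from set 0 and 25 from set 1, so set 1 values of this group rest on few cells. Among 5655 measured genes 138 were higher in members (2.44%) and 263 lower (4.65%), with a median log2 ratio of -0.03. All 4 given markers were higher: Krt19 averaged 10.9 CP10K against 0.770, Reg1 2.49 against 0.0954, Cym 0.917 against 0.0453 and Ctrb1 2.25 against 0.0409. Since the members are mostly of set 1 and the Fabp6-high cells mostly of set 0, pooled ratios mix the sets: the log2 ratio was 3.81 pooled, 4.38 in set 0 and 2.33 in set 1 for Krt19, 5.47, 5.96 and 2.93 for Ctrb1, 4.57, 5.67 and 3.05 for Reg1, and 4.07, 4.22 and 4.11 for Cym. After thinning, Ctrb1 was found in 0.833% of Fabp6-high cells (2 of 240, 0.101 to 2.98) and in 15.3% of members. Onecut2 averaged 1.03 against 0.0856 (0.870 against 0.0588 in set 0 and 1.09 against 0.317 in set 1), Ckb 6.24 against 1.01, Cldn15 1.45 against 0.0932, Nr2e3 1.88 against 0.229 and Cda 2.77 against 0.308. In set 0 and set 1 the log2 ratio was 3.37 and 2.09 for Ckb, 4.44 and 1.96 for Cldn15, 3.57 and 1.93 for Nr2e3, and 3.51 and 1.57 for Cda. Gata4 did not pass the fold, at 0.281 against 0.181, and in set 1 it was lower in members (0.303 against 0.328). The proximal list as a whole had a median of 0.39, with 0.19 in set 0 and -0.10 in set 1. Members and Fabp6-high cells share the Fabp1 range but not the level of other enterocyte genes. Members lay lower in 13 of 15 enterocyte genes (median -0.82) and in 13 of 15 brush border hydrolases (median -0.82). They also lay lower in 14 of 17 genes of brush border structure (median -0.54). Whether the differences from Fabp6-high cells follow region or maturity was not tested.

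The distal and lysosomal lists were lower in members than in Fabp6-high cells, and also lower than in the cells with more Fabp1. Against more Fabp1, 12 of 14 distal genes lay lower (median -0.79), with 3 called lower and 1, Guca2a, called higher. There 18 of 18 genes of endocytosis and lysosome lay lower, 2 past the fold (median -0.74). Against Fabp6-high cells, all 15 measured genes of the distal list were lower, 9 of them past the fold (median -2.24). Of these, Fabp6 and Afp are gate genes. Fgf15, the ileal hormone that restrains bile acid synthesis, averaged 0.211 against 2.85 CP10K, and Guca2a, guanylin, 0.925 against 10.9. The log2 ratio of Fgf15 was -2.44 in set 0 and -3.41 in set 1, and that of Guca2a -3.66 and -1.94. All 18 genes of endocytosis and lysosome were lower, 9 past the fold (median -1.70, with -1.96 in set 0 and -1.03 in set 1), with Lgmn at 0.388 against 6.99 (0.253 against 7.65 in set 0 and 0.443 against 1.31 in set 1), Cubn, the receptor cubilin, at 0.595 against 2.85, and Neu1, a lysosomal sialidase, at 3.08 against 11.7 (log2 ratios of -2.22 in set 0 and -1.28 in set 1). Of the liver list 4 of 6 measured genes were called lower, among them Ttr, a carrier of thyroid hormone and retinol, at 3.47 against 20.8 (log2 ratios of -3.67 in set 0 and -2.07 in set 1). Ribosome biogenesis was higher in members for 11 of 11 genes, 3 past the fold (median 1.39, with 1.53 in set 0 and 0.63 in set 1). Rbp2 averaged 82.4 against 63.0 and did not pass the fold. Without the 92 members low in Krt19, 218 genes were called higher and 409 lower, and the log2 ratio of Lgmn moved from -4.14 to -5.46, that of Guca2a from -3.54 to -4.48 and that of Gpx3 from -4.23 to -5.52.

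**Figure D5:**
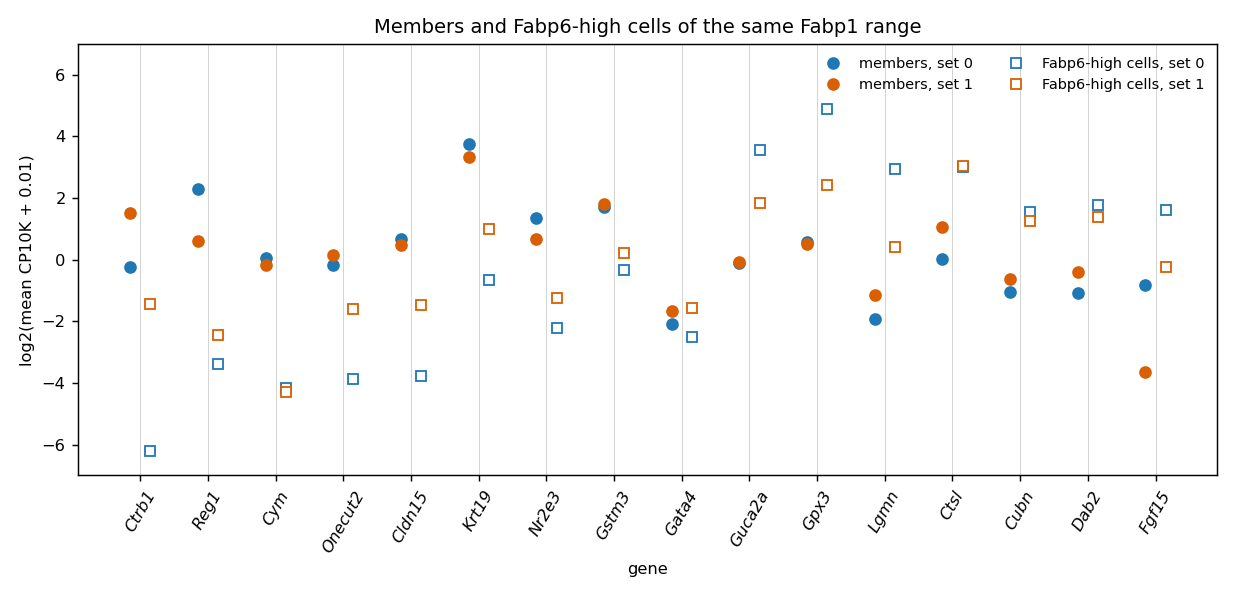
Mean level, as log2(CP10K + 0.01), of 16 genes in members (filled circles) and in Fabp6-high cells of the same Fabp1 range (open squares), by set. Ctrb1 to Gstm3 lie higher in members of both sets, Guca2a to Fgf15 lie lower, and Gata4 overlaps.

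Over all 10514 other kept cells, 12 of 5286 measured genes were higher in members (0.227%) and 65 lower (1.23%), with a median log2 ratio of 0.03. Apart from Sct, the genes highest in members among those with a mean of 1 CP10K or more were Ctrb1 (2.25 against 0.353), Gstm3 (3.42 against 1.07), Cldn15 (1.45 against 0.508), Gstm1 (3.98 against 1.48), Phgr1 (4.01 against 1.51), Krt19 (10.9 against 4.44) and Nr2e3 (1.88 against 0.866). Reg1 and Cym did not pass the fold in set 1, with log2 ratios of 0.24 and 0.19 there and of 2.20 and 1.71 in set 0.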

How the data were processed

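The deposited table holds 11871 cells and 25663 genes. Its values are a linear signal on which the authors' deposited cells each add up to 10000. Per the submitters' processing notes, Salmon 0.14.1, alevin and Scanpy 1.6.0 were used with GRCm38 or mm10; which cells the authors filtered out is not stated in the labels. No cell was removed here as a doublet. To recover molecules, the commonest value above 0 in each cell was taken as 1 molecule; the part of a cell's values within 0.01 of a whole number was 94.9% at the median and 84.3% at the lowest. Levels are means of the deposited signal over cells. Log2 ratios add 0.01 to both means and so understate changes of low genes. A gene was measured with a mean of 0.2 in either group and called with a 2-fold difference in the pooled cells and in each set. Shares used cells thinned to 8000 molecules. Named were the markers, the 10 highest and 10 lowest called genes with a mean of at least 1, and the ends of each list; genes of the Fabp1 bins, of the Reg1 and Krt19 splits, and further called list members were chosen after their values were seen. The members and the 46 gene lists were chosen with earlier results of these data known. Ratios and calls were run on simulated cells that varied by counting error alone around a mean profile, with sets split at random. That run cannot show how calls behave where few cells hold a gene's signal or where the sets differ. Python 3.11.15, NumPy and SciPy were used. No test was run, because the pooled table is 1 sample.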

Additional observations from a re-analysis of the deposited data

How the results depend on the processing

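No paired analysis was possible because each genotype has 1 sample and no column is tied to it. The share of members was 3.20% with Fabp1 from 50 to below 90, 7.47% from 30 to below 120, 6.41% with no gate on Mki67 and Top2a, 2.63% in set 0, 7.48% in set 1 and 4.04% without members with Krt19 below 3. Counts of called genes that moved by over 1.5 times are given as higher and lower, or 1 of them. Against all other cells (12 and 65) they were 25 lower with a minimum mean of 1, 243 lower with no minimum, 7 and 42 with 0.1 added, 70 and 298 in set 0 alone, 23 and 143 with the pooled cells alone, and 154 lower without low Krt19. Against cells with more Fabp1 (105 and 99) they were 25 and 46, 253 and 181, 42 and 62, 436 and 319, 203 and 171, and 196 lower, in that order, and 169 higher after rescaling to a total without mitochondrial, ribosomal protein and haemoglobin genes. Against cells with less Fabp1 (44 and 56) they were 20 and 14 with a minimum of 1, 72 and 294 with none, 29 and 29 with 0.1 added, 109 lower in set 0, 88 lower after rescaling, and 84 and 203 with no cycling gate. Against Fabp6-high cells (138 and 263) they were 45 and 88, 384 and 481, 72 and 135, 531 and 718 in set 0, 241 and 619 in set 1, 453 and 557 with the pooled cells alone, 231 higher after rescaling, 87 higher with Fabp1 from 30 to below 120, and 218 and 409 without low Krt19.

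Calls on the higher side made up 51.5% against more Fabp1, and 35.2% with a minimum of 1, 40.4% with 0.1 added and 66.0% after rescaling. Against less Fabp1 they made up 44%, and 58.8% with a minimum of 1, 19.7% with none and 29.3% with no cycling gate; against Fabp6-high cells 34.4%, and 48.9% after rescaling and 44.9% with the pooled cells alone. Rescaling moved the median log2 ratio of all genes from 0.12 to 0.24 against more Fabp1 and from -0.03 to 0.09 against Fabp6-high cells.

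Without the 3 enteroendocrine-high members, or without low Krt19, Sct reversed to -3.41 and -3.77 over all other cells, -2.25 and -2.61 over more Fabp1, and -1.84 and -2.20 over Fabp6-high cells, and Pyy to -0.44 and -0.39 over more Fabp1. Pyy over Fabp6-high cells reversed to -0.0030 without the 3 members. These 2 settings, the pooled cells alone, the mean of both sets' ratios and leaving out shared barcodes from both sets were chosen after seeing the data. The 1-molecule value rests on deposited decimals, and low genes carry the largest counting error.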
